A study of Mus musculus with 18 samples.

Results

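The genes described here are 9 transcription factors that are known to set cell lineages in other epithelia and that mark mimetic medullary thymic epithelial cells (mTECs): Hnf4a, Hnf4g, Foxa1, Foxa2, Foxa3, Ptf1a, Insm1, Grhl1 and Spib. They were taken by symbol from the deposited count tables, where 9 of 9 were found, among 49585 genes in the tables of the Aire and Fezf2 experiments and 21969 in that of Chd4. RNA-seq was measured in sorted mouse mTECs in 18 libraries, 6 groups of 3, lettered A to C within a group in the order of their barcodes. The knockout groups were mTECs from Aire KO mice (C57BL/6), Fezf2 KO mice (C57BL/6, named Fezf2cKO in the column names) and Chd4 cKO mice (C57BL/6x129P2, Chd4 flox/flox with Foxn1-Cre, a recombinase driven by the promoter of a thymic epithelial gene). Their controls were a WT group for Fezf2 and another WT group for Aire, both C57BL/6, and a Chd4 control group of C57BL/6x129P2 mice that carried Chd4 flox/flox, with no Cre named. The labels give neither the deleted exons of Aire and Fezf2 nor the age of the mice, the gates of the sort or whether the libraries of a group came from separate animals, so a p-value here measures only how these libraries vary within groups, and that spread may be technical.

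Mimetic mTECs are thymic epithelial cells that take on the look of a peripheral cell type, such as an enterocyte, a microfold cell, a keratinocyte or a neuroendocrine cell, and present its proteins to developing T cells. Each type is thought to use the transcription factor that builds its peripheral counterpart. HNF4 nuclear receptors and FOXA forkhead proteins act in gut and liver, and FOXA proteins also in airway. Ptf1a drives the acinar pancreas, Insm1 the endocrine and neuroendocrine cells, Grhl1 the epidermal barrier, and Spib, an ETS factor, the microfold cells of gut epithelium. Aire and Fezf2 are regulators that let mTECs transcribe genes of many peripheral tissues, and Chd4 is the ATPase of the NuRD chromatin remodelling complex.

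In the deposited tables (build GRCm38, also called mm10) Hnf4a lay on chromosome 2 from 163506808 to 163572910 and Hnf4g on chromosome 3 from 3508030 to 3658052. The forkhead genes lay on chromosome 12 from 57540631 to 57546121 (Foxa1), on chromosome 2 from 148042877 to 148046969 (Foxa2) and on chromosome 7 from 19013284 to 19023538 (Foxa3). Ptf1a lay on chromosome 2 from 19445663 to 19447501 and Insm1 on chromosome 2 from 146221921 to 146225020. Grhl1 lay on chromosome 12 from 24572287 to 24617391, and Spib on chromosome 7 from 44525993 to 44532071. Exon reads of a gene were counted over its annotated exons. Ptf1a shares 609 exon bases with its antisense gene Ptf1aos, which the Chd4 table does not list. The sources do not say whether the counting used strand, so reads of these overlapping genes cannot be told apart.

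Sequences before the annotated starts are shown for Hnf4a and Grhl1, the called factors with an entry in the RefSeq promoter table (GRCm38.p6). Each has a pair of annotated starts, and the 250 bases before each start are printed on the gene's strand with CG dinucleotides in capitals, since the density of CG is what sets the windows apart most visibly. The windows lie at chr2:163506607-163506856 and chr2:163546905-163547154 for Hnf4a and at chr12:24572037-24572286 and chr12:24580469-24580718 for Grhl1, on the plus strand in each case.
Hnf4a window 1: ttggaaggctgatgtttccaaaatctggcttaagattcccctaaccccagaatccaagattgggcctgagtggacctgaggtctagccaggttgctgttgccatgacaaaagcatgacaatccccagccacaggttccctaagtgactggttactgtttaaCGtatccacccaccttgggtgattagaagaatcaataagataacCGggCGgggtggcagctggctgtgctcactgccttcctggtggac
Hnf4a window 2: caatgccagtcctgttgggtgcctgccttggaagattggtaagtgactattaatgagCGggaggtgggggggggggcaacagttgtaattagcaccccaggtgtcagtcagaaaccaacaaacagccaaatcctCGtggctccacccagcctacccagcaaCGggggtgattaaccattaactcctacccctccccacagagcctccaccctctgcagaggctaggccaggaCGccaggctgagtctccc
Grhl1 window 1: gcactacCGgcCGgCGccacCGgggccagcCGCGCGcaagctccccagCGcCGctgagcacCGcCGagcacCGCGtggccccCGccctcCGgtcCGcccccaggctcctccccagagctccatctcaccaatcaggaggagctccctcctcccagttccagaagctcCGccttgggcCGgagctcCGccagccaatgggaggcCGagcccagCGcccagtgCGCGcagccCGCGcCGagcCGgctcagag
Grhl1 window 2: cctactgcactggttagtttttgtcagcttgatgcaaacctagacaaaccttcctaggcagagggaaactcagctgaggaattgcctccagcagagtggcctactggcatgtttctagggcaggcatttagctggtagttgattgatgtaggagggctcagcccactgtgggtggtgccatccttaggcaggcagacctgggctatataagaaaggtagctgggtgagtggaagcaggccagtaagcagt
Window 1 of Grhl1 held 27 CG dinucleotides and 75.6% G or C, and 8.56% of the 32851 windows in the table held as many or more. Window 2 of Grhl1 held 0 CG and 52% G or C. The Hnf4a windows held 3 and 4 CG, below the median of 6 over all windows. Consensus motifs were searched on both strands in 300 bases (250 before to 50 after the start) of the 11 windows of the 7 factors with an entry. The HNF4 motif CAAAGTCCA and the grainyhead motif AACCGGTT, which reads the same on both strands, matched none of them, and they matched 0.475% and 0.146% of all windows. The forkhead motif TGTTTAC, found in 3.65% of all windows, matched once, in the Foxa1 window, and the ETS motif GAGGAAGT, found in 3.2%, matched once, in window 2 of Foxa2. The 30 bases around each match are shown with the motif in capitals, the Foxa1 match being the reverse complement of the motif, at chr12:57546234-57546263 and chr2:148046045-148046074 on the minus strand.
Foxa1: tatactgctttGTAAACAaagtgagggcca
Foxa2: cgggagagagaGAGGAAGTggagtccagag
A match describes the letters only. Hnf4g and Insm1 had no entry.

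Exon reads per library ranged from 3571570 to 17220157. The mTEC label was set beside marker levels: over the 18 libraries the epithelial adhesion gene Epcam lay at 448 to 674, the medullary keratin Krt5 at 243 to 1500 and the mature mTEC ligand Cd80 at 19.1 to 109 counts scaled to 1000000 exon reads (CPM), while the T cell gene Cd3e lay at 0.281 to 27.7 CPM and the cortical epithelial gene Psmb11 at 5.85 to 48.7 CPM. These levels were not the same in a knockout and its control. Krt5 lay at 243 to 278 CPM in Aire KO libraries and 339 to 469 CPM in their WT. It lay at 832 to 1384 CPM in Fezf2 KO libraries and 332.5 to 428.5 CPM in their WT. In Chd4 cKO libraries it lay at 1104 to 1500 CPM, and in the control at 726.5 to 770 CPM. Epcam and Cd80 also did not overlap in Aire KO and Fezf2 KO, but overlapped in Chd4 cKO. Of 14 mTEC markers, 4 were called higher and 3 lower in Aire KO, and 1 higher and 1 lower in Fezf2 KO. In Chd4 cKO 4 were higher and 4 lower. Over all tested genes 5.73%, 2.48% and 14.3% were higher and 9.37%, 2.4% and 14.3% lower. Aire and Fezf2 are on this list and were themselves called: both higher in Aire KO, and Aire lower and Fezf2 higher in Chd4 cKO. The 1 lower in Fezf2 KO was Fezf2 itself. Without library B of the WT for Fezf2, 6 were higher and 2 lower, beside 6.5% and 6.06% of all tested genes. Fezf2 averaged 13.6 ± 8.46 CPM in Fezf2 KO libraries and 652 ± 82.5 CPM in their WT, and Chd4 averaged 27.4 ± 2.8 CPM in Chd4 cKO libraries and 60.3 ± 5.69 CPM in the control (mean ± SD, n = 3 libraries per group here and throughout). Aire exon reads were higher in the libraries labelled Aire KO, at 3941 ± 182 CPM, than in their WT, at 2018 ± 255 CPM, and reads outside a deleted part would not check the label. Library B of the WT for Fezf2 stood apart. Its counts differed from those of the other libraries of its group with a chi-square per degree of freedom of 39.3 and 35.4, where pairs within the other groups, and libraries A and C of this group, had 4.07 to 10.2. Counts of called factors and of called genes on the lineage lists are given for Fezf2 KO with and without it.

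The factors differed widely in level, and their order was similar in the 6 groups. Per kb of exon, Spib was the highest in every group, with group means of 120 to 181 CPM per kb, and Foxa1 ranked 3 in every group with 17.6 to 25.7 CPM per kb. Insm1 (25.2 to 51.5) and Grhl1 (12.2 to 47.5) took ranks 2 and 4 around it. Insm1 held rank 2 in 5 of the 6 groups, and Grhl1 held it in Fezf2 KO libraries. Ranks 2 and 3 overlapped in the WT for Fezf2 and were separated in every other group. Ranks 3 and 4 were separated in Aire KO libraries and in the WT for Aire, and their libraries overlapped in the other 4 groups. Hnf4g (2.86 to 8.98) and Foxa3 (1.37 to 3.32) came next, and Foxa2, Ptf1a and Hnf4a were lowest, at 2.05 CPM per kb or less in each group mean. Spib was separated from the next factor in every library of every group. The lowest 3 were not separated from each other in 5 of the 6 groups. In Aire KO libraries Hnf4a, with 1 read in all, had the lowest mean, and in library B it and Foxa2 had 1 read each.

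**Figure D1:**
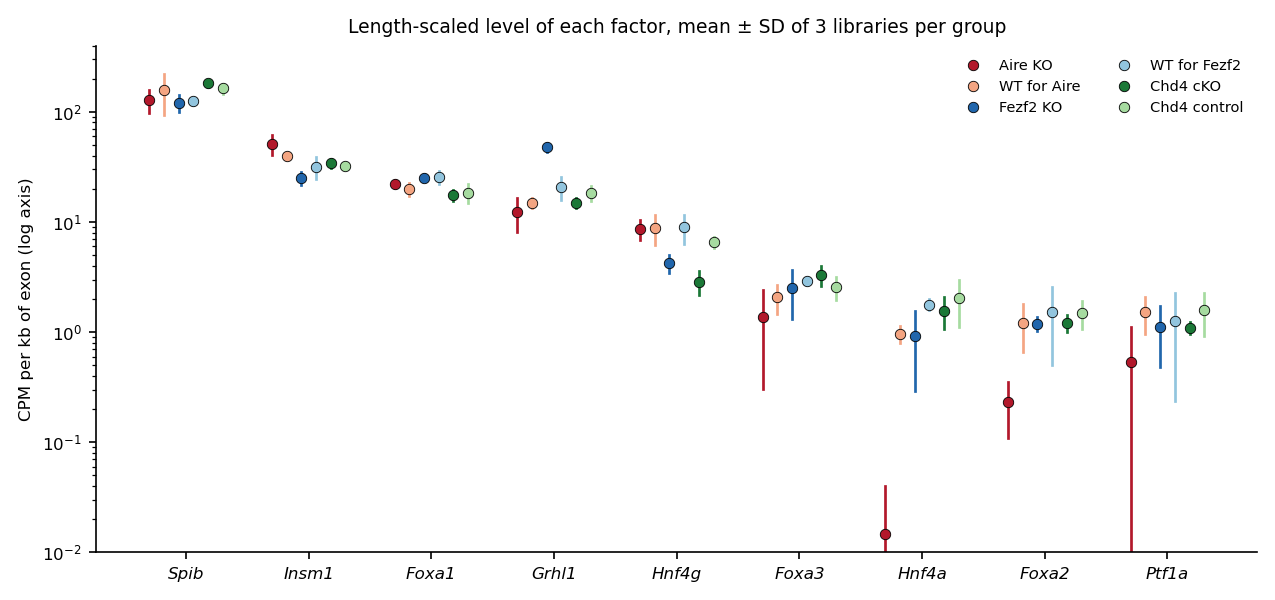
Level of each factor in CPM per kb of exon on a log axis, as the mean and SD of 3 libraries in each of the 6 groups, each knockout left of its control (error bars that reach below 0.01 are clipped at the axis). Spib is at 120 to 181 CPM per kb, while the Hnf4a mean in Aire KO libraries, 0.0148 CPM per kb, is far below its other 5 group means.

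In each knockout 1 of the tested factors passed the threshold in the main analysis: Hnf4a was lower in Aire KO, Grhl1 was higher in Fezf2 KO and Hnf4g was lower in Chd4 cKO. Hnf4g was not particular to Chd4 cKO: its fitted log2 change was -1.09 in Fezf2 KO and -1.16 in Chd4 cKO. In Fezf2 KO it missed the threshold in the main analysis but was called in 4 of 5 alternative settings that kept all libraries. A factor was called where the Benjamini-Hochberg adjusted p of edgeR's quasi-likelihood test over all genes was under 0.05. In Aire KO 1 of 7 tested factors was called lower and 0 higher, where 9.37% of 14949 genes were lower, 5.73% higher and 15.1% called in all. In Fezf2 KO 1 of 8 was called higher and 0 lower, where 2.48% of 15695 genes were higher, 2.4% lower and 4.87% called in all. In Chd4 cKO 1 of 8 was called lower and 0 higher, where 14.3% of 15182 genes were lower, 14.3% higher and 28.6% called in all. A count of 1 among 7 or 8 factors is too small to set against these shares. Foxa2 and Ptf1a in Aire KO, and Ptf1a in Fezf2 KO and Chd4 cKO, had too few reads for the filter on low counts. The libraries of both groups did not overlap for 2 of the 7 tested factors in Aire KO, 3 of 8 in Fezf2 KO and 1 of 8 in Chd4 cKO, beside 32.1%, 27.5% and 44.3% of all tested genes. The median log2 change of the tested factors was -0.28 in Aire KO, -0.28 in Fezf2 KO and -0.18 in Chd4 cKO, beside 0.00, -0.03 and 0.00 over all genes. Without library B of the WT for Fezf2, 1 of 8 factors was higher (Grhl1) and 1 of 8 lower (Hnf4g) in Fezf2 KO, where 6.5% of genes were higher and 6.06% lower, and the median log2 change of the factors was -0.10. In bulk libraries fewer cells of a type and less RNA per cell cannot be told apart.

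**Figure D2:**
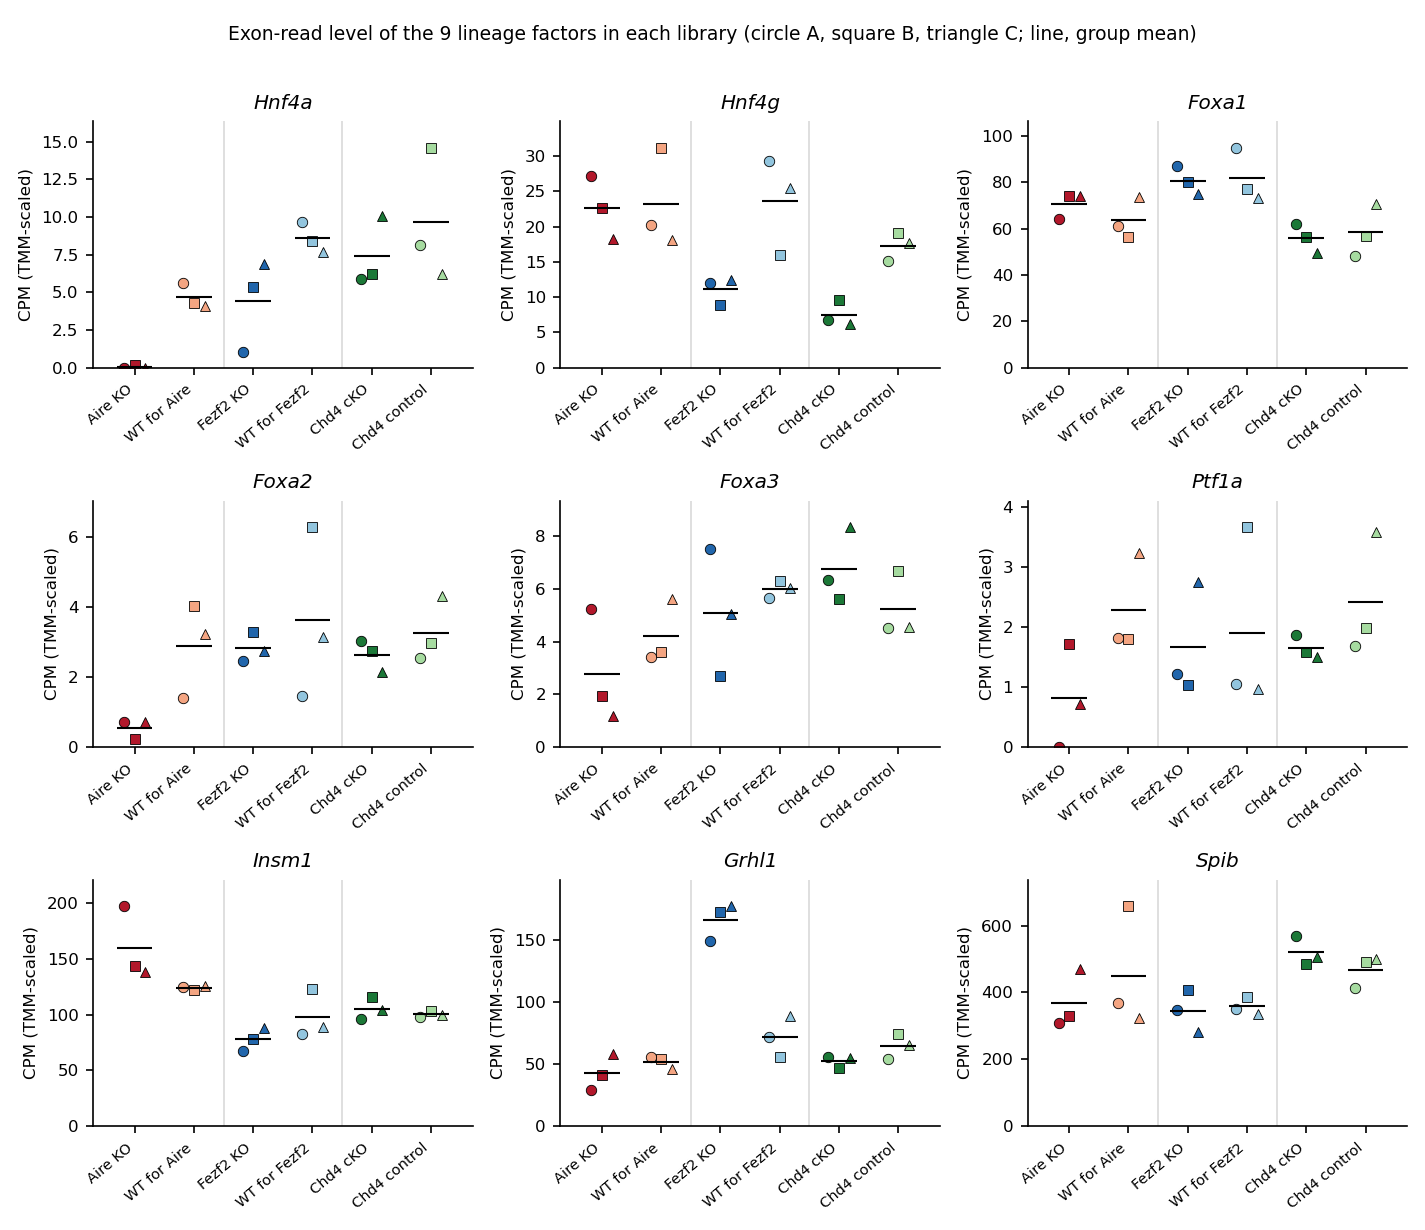
Exon-read level (CPM) of the 9 factors in each of 18 libraries, with each knockout left of its control and a line at the group mean; axes start at 0. Hnf4a is at 0 to 0.214 CPM in Aire KO libraries, Grhl1 is at 149 to 177 CPM in Fezf2 KO libraries and at 29.1 to 89.1 CPM elsewhere, and Hnf4g is below its controls in Fezf2 KO and Chd4 cKO libraries.

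Hnf4a, the nuclear receptor of the hepatocyte and enterocyte programmes, was almost without reads in Aire KO libraries. It had 0, 0.214 and 0 CPM in Aire KO libraries A, B and C, against 5.65, 4.26 and 4.10 CPM in the WT for Aire. The groups did not overlap: 1 exon read stood against 66. Scaled to equal depth this was 61.3-fold lower, with an exact conditional 95% interval of 10.6 to 2459 that covers counting error only. The fitted log2 change was -5.50 (SE 0.85, adjusted p = 0.000678), a value that depends on the prior count, and leaving out any of the 6 libraries kept the adjusted p between 0.00306 and 0.00553.

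In the other knockouts Hnf4a kept reads in every library. It had 1.05, 5.35 and 6.88 CPM in Fezf2 KO libraries, against 9.64, 8.38 and 7.70 CPM in their WT. Each Fezf2 KO library lay below each WT library, and library A was far below the other Fezf2 KO libraries, but the change did not pass the test (log2 -0.97, SE 0.57, adjusted p = 0.387). The log2 value was -0.49 without library A of Fezf2 KO and -1.43 without library C. In Chd4 cKO libraries it had 5.89, 6.21 and 10.1 CPM, against 8.16, 14.6 and 6.22 CPM in the control, and the groups overlapped (log2 -0.42, SE 0.36, adjusted p = 0.414).

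Hnf4g, the second HNF4 receptor, which acts in the intestine, was called in Chd4 cKO. In Aire KO libraries it had 27.1, 22.7 and 18.2 CPM, against 20.2, 31.2 and 18.1 CPM in the WT for Aire. The groups overlapped (log2 -0.03, 95% interval -0.51 to 0.46, adjusted p = 0.961), and the sign of this value changed with the setting. In Chd4 cKO libraries it had 6.76, 9.61 and 6.21 CPM, against 15.2, 19.1 and 17.7 CPM in the control. Every Chd4 cKO library lay below every control library, 2.24-fold lower in the fit (log2 -1.16, SE 0.23, adjusted p = 0.00443), and the call held without any of the 6 libraries (adjusted p 0.00441 to 0.0212).

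In Fezf2 KO libraries Hnf4g had 12.1, 8.85 and 12.4 CPM, against 29.4, 16.0 and 25.5 CPM in their WT. The groups did not overlap, yet the change missed the threshold (log2 -1.09, SE 0.31, adjusted p = 0.0745). Library B of the WT, at 16.0 CPM, was the lowest control, and without it the change was called (log2 -1.30, adjusted p = 0.00347). It was also called with DESeq2 (adjusted p = 0.0244), without the filter on low counts (0.0416), with sample quality weights (0.000832), with the spread shared over 18 libraries (0.011) and in the authors' deposited table (q = 0.0349). Leaving out any other library gave adjusted p of 0.163 to 0.293.

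Foxa1, a forkhead factor that opens chromatin in endoderm and airway, showed small differences in all 3 knockouts. It had 64.1, 74.0 and 74.3 CPM in Aire KO libraries, against 61.2, 56.5 and 73.6 CPM in the WT for Aire (log2 0.15, 95% interval -0.13 to 0.43, adjusted p = 0.555). The fitted log2 change was -0.02 in Fezf2 KO (95% interval -0.40 to 0.36, adjusted p = 0.969) and -0.06 in Chd4 cKO (95% interval -0.35 to 0.23, adjusted p = 0.787), and the groups overlapped in all 3 comparisons.

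Foxa2, needed for definitive endoderm, was near the limit of detection. It had 0.714, 0.214 and 0.709 CPM in Aire KO libraries, against 1.41, 4.04 and 3.24 CPM in the WT for Aire, 7 exon reads against 40. Every Aire KO library lay below every WT library, but the gene did not pass the filter on low counts there, so no test of the main analysis bears on it. Without that filter the log2 change was -2.35 (adjusted p = 0.055), with the spread shared over 18 libraries it was -2.36 (adjusted p = 0.0194), and the authors' deposited table gives q = 0.0924. Foxa2 averaged 2.83 ± 0.43 CPM in Fezf2 KO libraries and 3.63 ± 2.45 CPM in their WT (log2 -0.34, SE 0.59, adjusted p = 0.797), and without library B of the WT the sign turned (log2 0.31). It averaged 2.64 ± 0.45 CPM in Chd4 cKO libraries and 3.27 ± 0.92 CPM in the control (log2 -0.30, SE 0.39, adjusted p = 0.608).

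Foxa3, the forkhead factor of hepatocytes and goblet cells, had 5.24, 1.93 and 1.18 CPM in Aire KO libraries, against 3.43, 3.59 and 5.61 CPM in the WT for Aire. The groups overlapped (log2 -0.60, SE 0.57, adjusted p = 0.563). It averaged 5.08 ± 2.42 CPM in Fezf2 KO libraries and 5.99 ± 0.31 CPM in their WT (adjusted p = 0.828), and 6.77 ± 1.42 CPM in Chd4 cKO libraries and 5.24 ± 1.24 CPM in the control (adjusted p = 0.463).

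Ptf1a, the acinar factor, was not tested in any knockout comparison because its reads were too few: 11 exon reads in Aire KO libraries against 32 in the WT for Aire, 24 in Fezf2 KO libraries against 23 in their WT, and 47 in Chd4 cKO libraries against 29 in the control. It had 0, 1.72 and 0.709 CPM in Aire KO libraries, against 1.82, 1.80 and 3.24 CPM in the WT for Aire, so the groups did not overlap. Reads of Ptf1aos may be among these in any of the libraries. Ptf1aos itself was counted with 1 read over the libraries of the Aire experiment and 4 over those of the Fezf2 experiment.

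Insm1, a zinc-finger factor of endocrine and neuroendocrine cells whose gene is a single exon, had 197, 143 and 138 CPM in Aire KO libraries, against 124, 122 and 125 CPM in the WT for Aire. Every Aire KO library was higher than every WT library, and library A stood highest, but the change did not pass the test (log2 0.36, SE 0.14, adjusted p = 0.0987). It did without library C of Aire KO (log2 0.47, adjusted p = 0.0383) and without the filter on low counts (log2 0.38, adjusted p = 0.0343), and without library A the log2 change was 0.19 (adjusted p = 0.352). In Fezf2 KO libraries Insm1 had 67.6, 78.4 and 88.1 CPM, against 82.6, 123 and 88.6 CPM in their WT. These overlapped (log2 -0.33, SE 0.22, adjusted p = 0.453), and without library B of the WT the log2 value was -0.13 (adjusted p = 0.609). In Chd4 cKO libraries it averaged 105 ± 9.8 CPM, and 100.4 ± 2.89 CPM in the control (log2 0.07, 95% interval -0.12 to 0.27, adjusted p = 0.623).

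Grhl1, a grainyhead factor of the epidermal barrier, rose in Fezf2 KO. It had 149, 173 and 177 CPM in Fezf2 KO libraries, against 72.1, 55.5 and 89.1 CPM in their WT. Every Fezf2 KO library lay well above every WT library, 2.30-fold higher in the fit (log2 1.20, SE 0.22, adjusted p = 0.0138). Without library B of the WT the log2 change was 1.05 (adjusted p = 0.000407). Leaving out any of the Fezf2 KO libraries kept the size (log2 1.16 to 1.28) but ended the call: the adjusted p was 0.0627 without A, 0.0878 without B and 0.0859 without C.

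In the other knockouts Grhl1 was not called. It had 29.1, 41.2 and 58.2 CPM in Aire KO libraries, against 55.9, 54.3 and 45.98 CPM in the WT for Aire, and the groups overlapped (log2 -0.28, SE 0.21, adjusted p = 0.445). It had 55.4, 46.5 and 54.8 CPM in Chd4 cKO libraries, against 53.7, 74.0 and 65.1 CPM in the control (log2 -0.31, SE 0.14, adjusted p = 0.115).

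Spib, the ETS factor of microfold cells, was the most abundant of the 9 and was called in none of the comparisons. It had 308, 329 and 469 CPM in Aire KO libraries, against 370, 658 and 323 CPM in the WT for Aire, where library B of the WT stood highest (log2 -0.29, SE 0.23, adjusted p = 0.476). In Fezf2 KO libraries it had 347, 407 and 282 CPM, against 352, 388 and 337 CPM in their WT (log2 -0.06, 95% interval -0.45 to 0.34, adjusted p = 0.911). In Chd4 cKO libraries it had 568, 485 and 506 CPM, against 413, 490.0 and 501 CPM in the control (log2 0.15, 95% interval -0.04 to 0.35, adjusted p = 0.288). The groups overlapped in each comparison. Spib is also expressed by B cells and plasmacytoid dendritic cells. B cell markers summed to 68.6 to 147 CPM in Aire KO libraries and 78.5 to 113 CPM in the WT for Aire, to 74.6 to 86.7 CPM in Fezf2 KO libraries and 126 to 263 CPM in their WT, and to 107 to 130 CPM in Chd4 cKO libraries and 83.1 to 96.2 CPM in the control. Dendritic cell markers summed to 1208 to 1469 CPM in Aire KO libraries and 1055 to 1139 CPM in the WT for Aire, to 1135 to 1224 CPM in Fezf2 KO libraries and 1251 to 1793 CPM in their WT, and to 928 to 1021 CPM in Chd4 cKO libraries and 1189 to 1319 CPM in the control. Of the B cell markers 1 of 7 tested was called higher and 0 lower in Aire KO. In Fezf2 KO 1 of 8 was lower and 0 higher (2 of 9 and 0 without library B of the WT). In Chd4 cKO 1 of 8 was higher and 1 lower. Of the dendritic cell markers 3 of 10 tested were called higher and 3 lower in Aire KO. In Fezf2 KO 1 of 12 was higher and 0 lower, and in Chd4 cKO 2 of 12 were higher and 4 lower. Siglech, a plasmacytoid dendritic cell gene on that list, lay at 0 to 3.67 CPM over the 18 libraries. The part of B cells and dendritic cells in the Spib values was not tested.

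**Figure D3:**
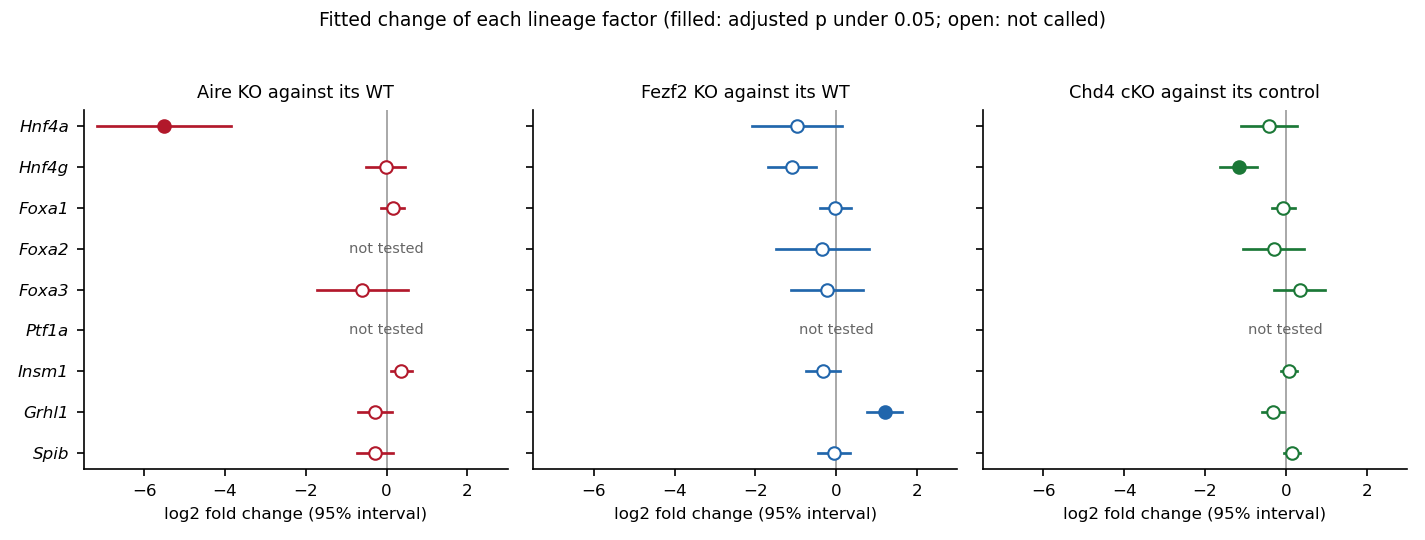
Log2 fold change with its 95% interval for each factor in the 3 comparisons, filled where the adjusted p was under 0.05 and open where not. The filled points are Hnf4a in Aire KO (-5.50), Grhl1 in Fezf2 KO (1.20) and Hnf4g in Chd4 cKO (-1.16), and factors written as not tested had too few reads.

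Differences between the effects were tested as interaction contrasts in 1 edgeR fit of the 18 libraries, where 16.9% of 16169 genes passed for Fezf2 minus Aire, 16.5% for Chd4 minus Aire and 14.9% for Chd4 minus Fezf2. Of the 9 factors 3, 1 and 1 passed. The Chd4 libraries are of another mouse strain and, per the column headers, of another sequencing run than the Aire and Fezf2 libraries. Exons of Hnf4a and Foxa2 were also annotated at other lengths for Chd4 (4702 and 2180 bases) than for Aire and Fezf2 (4828 and 2370 bases). A difference from the Chd4 effect thus cannot be told apart from one of strain or run or, for Hnf4a and Foxa2, of annotation. The Hnf4a effect differed between Fezf2 KO and Aire KO by 4.58 (log2, SE 1.13, adjusted p = 0.00737; 3.16 with sample quality weights, adjusted p = 0.102) and between Chd4 cKO and Aire KO by 5.20 (SE 1.10, adjusted p = 0.00235). The Grhl1 effect differed between Fezf2 KO and Aire KO by 1.46 (SE 0.29, adjusted p = 0.00138) and between Chd4 cKO and Fezf2 KO by -1.47 (SE 0.29, adjusted p = 0.00168). The Insm1 effect differed between Fezf2 KO and Aire KO by -0.72 (SE 0.23, adjusted p = 0.0388), and without library B of the WT for Fezf2 by -0.51 (adjusted p = 0.0681). For Hnf4g the difference just missed the threshold, at -1.08 (SE 0.38, adjusted p = 0.0561) for Fezf2 minus Aire and -1.12 (SE 0.38, adjusted p = 0.0503) for Chd4 minus Aire, and it was -0.04 (SE 0.38, adjusted p = 0.967) for Chd4 minus Fezf2. Without library B of the WT for Fezf2 the Fezf2 minus Aire and Chd4 minus Aire contrasts of Hnf4g were called, at -1.28 (adjusted p = 0.0134) and -1.11 (adjusted p = 0.0216), and so were both with sample quality weights, at -1.38 (adjusted p = 0.00543) and -1.10 (adjusted p = 0.0156). No contrast passed for Foxa1, Foxa2, Foxa3, Ptf1a or Spib (adjusted p 0.109 to 0.997), but without library B of the WT Foxa2 passed for Fezf2 minus Aire (2.68, adjusted p = 0.0357).

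**Figure D4:**
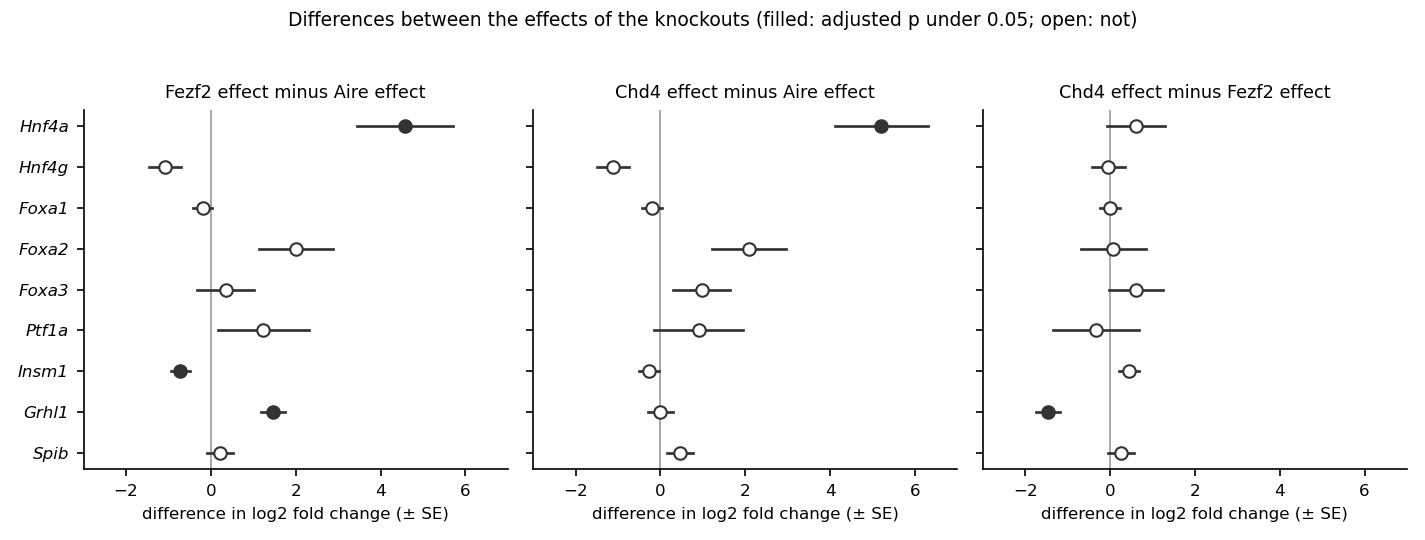
Difference between the log2 effects of a pair of knockouts for each factor (x, ± SE), with filled points where the adjusted p was under 0.05 and open points where it was not. The filled points are Hnf4a at 4.58 and 5.20, Grhl1 at 1.46 and -1.47 and Insm1 at -0.72.

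The control groups were compared as well. Between the WT for Fezf2 and the WT for Aire, labelled as separate groups of the same strain, 0 of 8 tested factors were called at the adjusted threshold in edgeR or in DESeq2, where 0.128% of 15656 genes were called in edgeR, 0.0958% higher and 0.0319% lower. The libraries of the WT groups did not overlap for 2 of 8 factors, Hnf4a and Insm1, beside 20.4% of all tested genes. At an unadjusted p under 0.05, 0 of 8 passed in edgeR. Hnf4a came nearest, at 8.65 ± 0.98 CPM in the WT for Fezf2 and 4.88 ± 0.88 CPM in the WT for Aire, with the scaling of that fit (log2 0.82, SE 0.37, unadjusted p = 0.0506, adjusted p = 0.419).

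Genes of the lineages that the factors are known for were counted in lists drawn up from general knowledge. The lists were chosen with earlier results of these data known, so their counts are a description. A gene without reads in a knockout passed the filter on low counts through the control alone, so its direction was fixed by the filter. Over all tested genes, 9.37% were lower and 5.73% higher in Aire KO, 2.4% lower and 2.48% higher in Fezf2 KO (6.06% and 6.5% without library B of the WT), and 14.3% lower and 14.3% higher in Chd4 cKO, and the counts below stand beside these shares. Of the up to 3 called genes per list with the largest changes, 20 of 21 held their call in Aire KO when any 1 library was left out (all but Krt1), 20 of 20 in Chd4 cKO and 5 of 18 in Fezf2 KO (Pck1, Resp18, Msln, Krt10 and Krt1). The enterocyte and hepatocyte list, the lineages of HNF4 and FOXA factors, held more called genes lower than higher in all 3 knockouts. In Aire KO 15 of 27 tested genes were lower and 0 higher, with a median log2 change of -1.17. The genes with the largest changes were those of fibrinogen, the clotting protein made by hepatocytes: Fga and Fgb had 0 reads in Aire KO libraries against 141 and 148 in the WT for Aire, at least 43.7-fold and 45.8-fold lower (3 reads over the group), and Fgg had 0.611 ± 0.359 CPM in Aire KO libraries and 26.2 ± 7.13 CPM in the WT for Aire. In Fezf2 KO 12 of 29 were lower and 0 higher (median -1.12), among them Pck1, the gluconeogenic enzyme, at 7.70 ± 1.54 CPM in Fezf2 KO libraries and 82.4 ± 20.9 CPM in their WT. Without library B of the WT, 16 of 30 were lower and 0 higher (median -0.96). In Chd4 cKO 20 of 29 were lower and 1 higher (median -1.21), among them Ttr, the thyroxine carrier transthyretin, at 3.43 ± 2.48 CPM in Chd4 cKO libraries and 33.4 ± 5.94 CPM in the control.

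Digestive enzymes of the acinar pancreas, the lineage of Ptf1a, were lower in 9 of 12 tested genes in Aire KO (0 higher, median -2.60), with Cel, a bile-salt lipase, at 0 reads in Aire KO libraries against 313 in the WT for Aire, at least 97-fold lower. Only 12 of the 24 genes on this list passed the filter on low counts in Aire KO. Cel and Try4, with 0 reads in Aire KO libraries, passed it through the WT alone. In Fezf2 KO 2 of 18 were lower and 0 higher (median -0.56): Spink1, a trypsin inhibitor, averaged 74.9 ± 6.8 CPM in Fezf2 KO libraries and 250.4 ± 83.9 CPM in their WT, and the other was Ctrb1. The call of Spink1 was lost without 1 of the 6 libraries (adjusted p up to 0.0529) and that of Ctrb1 without 4 of the 6 (up to 0.182). Without library B of the WT 2 of 18 were lower and 0 higher (median -0.49). In Chd4 cKO 8 of 18 were lower and 1 higher (median -0.92), with Pnlip, pancreatic lipase, at 0.555 ± 0.375 CPM in Chd4 cKO libraries and 5.06 ± 2.44 CPM in the control.

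In the neuroendocrine list, the lineage of Insm1, 6 of 18 genes were lower and 1 higher in Aire KO (median -0.16). The granin Scg2, a protein of secretory granules, averaged 0.928 ± 0.87 CPM in Aire KO libraries and 20.8 ± 3.41 CPM in the WT for Aire, while the Insm1 level itself was 160 CPM in Aire KO libraries and 124 CPM in the WT for Aire. In Fezf2 KO 2 of 18 were lower and 0 higher (median -0.22), and without library B of the WT 3 were lower (median -0.20). Resp18, a neuroendocrine granule protein, averaged 21.5 ± 5.8 CPM in Fezf2 KO libraries and 165.5 ± 72.8 CPM in their WT. In Chd4 cKO 8 of 16 were lower and 1 higher (median -0.66), the higher gene being Syp, which codes for synaptophysin of synaptic vesicles, at 41.7 ± 5.65 CPM in Chd4 cKO libraries and 14.1 ± 3.3 CPM in the control.

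In the microfold cell list, the lineage of Spib, 9 of 18 genes were lower and 0 higher in Aire KO (median -0.65). Gp2, the bacterial uptake receptor of microfold cells, averaged 84.8 ± 29 CPM in Aire KO libraries and 298 ± 77.6 CPM in the WT for Aire, and Ccl20, a chemokine, 111 ± 20.5 CPM in Aire KO libraries and 341 ± 67.7 CPM in the WT for Aire. In Fezf2 KO 3 of 18 were higher and 2 lower (median -0.12), and without library B of the WT 6 were higher and 4 lower (median 0.07). Msln, mesothelin, averaged 3475 ± 280.2 CPM in Fezf2 KO libraries and 457 ± 87.9 CPM in their WT. The lower genes were Ccl20, at 172 ± 10.6 CPM in Fezf2 KO libraries and 493 ± 162 CPM in their WT, and H2-M2. H2-M2 averaged 285 ± 54.9 CPM in Fezf2 KO libraries and 523 ± 41.7 CPM in their WT. The call of Ccl20 was lost without 3 of the 6 libraries (adjusted p up to 0.0722) and that of H2-M2 without 5 of the 6 (up to 0.237). In Chd4 cKO 5 were higher and 7 lower (median -0.14), with Ccl6, a chemokine, at 26.4 ± 7.02 CPM in Chd4 cKO libraries and 151 ± 14.9 CPM in the control.

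The cornified keratinocyte list, the lineage of Grhl1, held more called genes higher than lower in Fezf2 KO. There 9 of 29 were higher and 2 lower (median 0.72), and without library B of the WT 15 were higher and 2 lower (median 0.56), while the share of all tested genes called higher was 2.48% with that library and 6.5% without it. Sbsn, suprabasin of the upper epidermis, averaged 298 ± 6.96 CPM in Fezf2 KO libraries and 90.7 ± 43 CPM in their WT, a call that was lost without 3 of the 6 libraries (adjusted p up to 0.0766). The lower genes were the suprabasal keratins: Krt10 averaged 31.6 ± 6.43 CPM in Fezf2 KO libraries and 221 ± 54.5 CPM in their WT, and Krt1 19.0 ± 0.636 CPM in Fezf2 KO libraries and 72.1 ± 14.5 CPM in their WT. In Aire KO 7 of 28 were lower and 0 higher (median -0.40), and in Chd4 cKO 11 of 27 were lower and 3 higher (median -0.63), with Spink5, a protease inhibitor of the epidermis, at 41.1 ± 7.03 CPM in Chd4 cKO libraries and 126 ± 24.8 CPM in the control.

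Airway and goblet secretory genes, a lineage of FOXA factors, were lower in 15 of 20 tested genes in Aire KO (1 higher, median -1.90), with Tff1, a mucosal trefoil peptide, at 0.928 ± 0.87 CPM in Aire KO libraries and 23.2 ± 4.55 CPM in the WT for Aire. The list has 25 genes, and Sftpc, with 0 reads in Aire KO libraries, passed the filter through the WT alone. In Fezf2 KO 4 of 24 were lower and 3 higher (median 0.29), and without library B of the WT 4 were lower and 7 higher (median 0.25). In Chd4 cKO 14 of 24 were lower and 2 higher (median -1.06), with Scgb3a2, a secretoglobin of airway club cells, at 0.546 ± 0.272 CPM in Chd4 cKO libraries and 9.91 ± 5.57 CPM in the control.

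The lists also differed between the WT groups, where the median over all genes was 0.03. The median log2 difference of the WT for Fezf2 from the WT for Aire was 1.08 for airway and goblet genes, 0.86 for cornified keratinocyte genes, 0.80 for acinar genes, 0.52 for enterocyte and hepatocyte genes, 0.20 for neuroendocrine genes and -0.13 for microfold cell genes. Of the tested genes 2 of 28 were called on the keratinocyte list, both higher in the WT for Fezf2, and 0 on the other 5 lists.

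**Figure D5:**
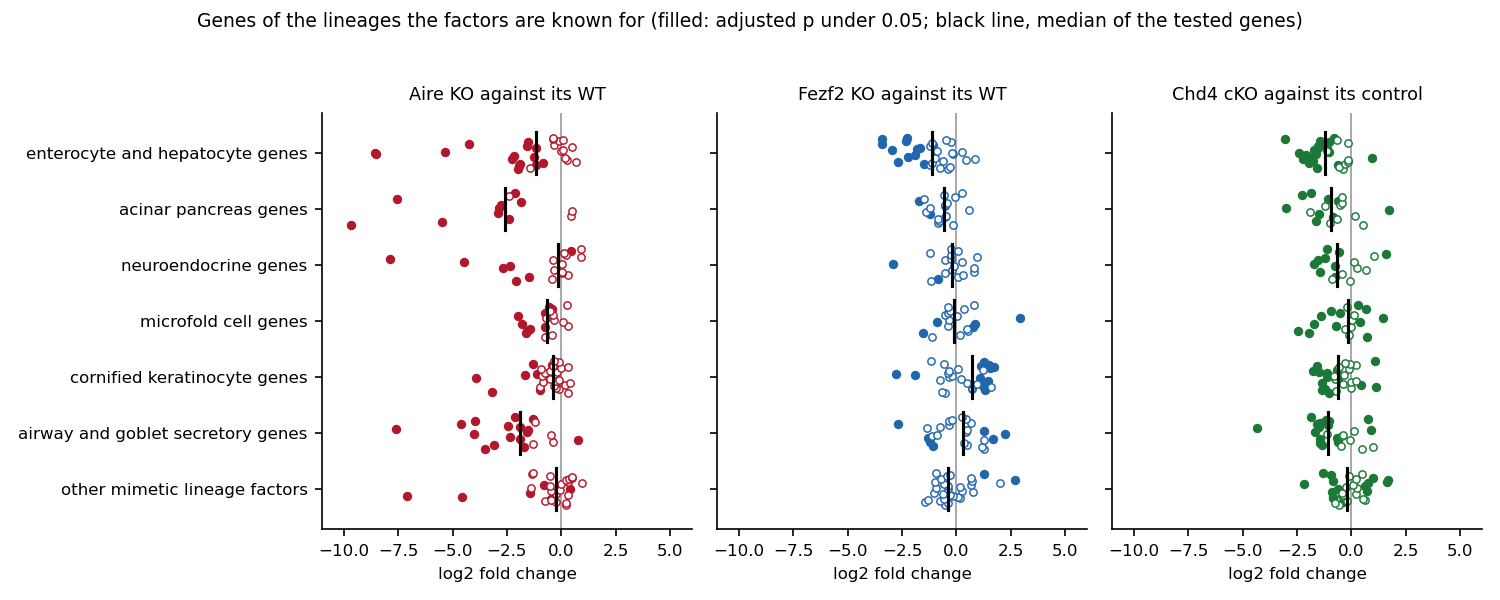
Log2 fold change of each tested gene on 7 lineage lists in the 3 comparisons, filled where the adjusted p was under 0.05, with a black line at the list's median. The enterocyte and hepatocyte medians lie at -1.17, -1.12 and -1.21, and the cornified keratinocyte median lies right of 0 in Fezf2 KO (0.72) and left of 0 in Aire KO (-0.40) and Chd4 cKO (-0.63).

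Among 45 further lineage factors of mimetic mTECs, 27 were tested in Aire KO and 5 were lower and 1 higher (median -0.23). Foxi2 had 0 reads in Aire KO libraries against 54 in the WT for Aire, at least 16.7-fold lower, and Foxi1, the factor of ion-transporting ionocytes, averaged 0.394 ± 0.683 CPM in Aire KO libraries and 9.85 ± 3.07 CPM in the WT for Aire. In Fezf2 KO 2 of 30 were higher and 0 lower (median -0.37), and without library B of the WT 3 of 31 were higher and 3 lower (median -0.15). The higher factors were Pax6, of endocrine and neural lineages, at 8.79 ± 1.47 CPM in Fezf2 KO libraries and 1.37 ± 0.502 CPM in their WT, and Spdef, of goblet cells, at 20.3 ± 4.37 CPM in Fezf2 KO libraries and 8.39 ± 0.958 CPM in their WT. The call of Pax6 was lost without 3 of the 6 libraries (adjusted p up to 0.0878) and that of Spdef without 5 of the 6 (up to 0.203). In Chd4 cKO 6 of 30 were higher and 9 lower (median -0.22). Pax6 averaged 5.60 ± 0.804 CPM in Chd4 cKO libraries and 1.67 ± 0.653 CPM in the control, Neurog3, of endocrine progenitors, 7.97 ± 2.94 CPM in Chd4 cKO libraries and 2.59 ± 0.784 CPM in the control, and Mcidas, of multiciliated cells, 3.34 ± 1.58 CPM in Chd4 cKO libraries and 16.1 ± 6.18 CPM in the control.

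Markers of other cells moved with some of these comparisons. In Fezf2 KO 8 of 15 thymocyte markers were lower and 0 higher (12 and 0 without library B of the WT), their summed level being 223 to 284 CPM in Fezf2 KO libraries and 463 to 839 CPM in their WT, and between the WT groups 4 of 15 thymocyte markers were higher in the WT for Fezf2, with a median log2 difference of 2.56. Summed cortical epithelial markers were 3300 to 3946 CPM in Fezf2 KO libraries and 1764 to 2384 CPM in their WT, and stromal markers 294 to 361 CPM in Fezf2 KO libraries and 178 to 262 CPM in their WT. Yet only 1 of 9 tested cortical and 1 of 10 tested stromal markers was called higher in Fezf2 KO, and 0 lower. Without library B of the WT, 3 were higher and 1 lower on each list. The cortical gene Psmb11 overlapped between Fezf2 KO and its WT. In Aire KO 0 of 13 tested thymocyte markers were called. Stromal markers summed to 413 to 513 CPM in Aire KO libraries and 260 to 299 CPM in the WT for Aire. Of 10 tested stromal markers, however, 3 were called higher and 4 lower in Aire KO. The dendritic cell markers Itgax and Cd209a were at 0 in the Aire KO libraries. In Chd4 cKO 0 of 13 tested thymocyte markers were called, while 2 of 12 dendritic cell markers were higher and 4 lower, 2 of 9 cortical markers were higher and 1 lower, and 1 of 9 stromal markers was higher and 2 lower. None of the thymocyte or B cell markers found in the tables was at 0 in all libraries of a group. Their part in the results was not tested.

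For each called factor the 3 genes with the most similar pattern over the 18 libraries were found among 13640 genes, by the mean absolute difference in log2 CPM with each library taken relative to its control group. For Hnf4a these were Pyroxd2 (0.40), Retnlb (0.40) and Gzmc (0.42), where the median over all genes was 1.07. For Hnf4g they were Tmprss2 (0.22), Bmp3 (0.23) and Cdhr5 (0.24), with a median of 0.61. For Grhl1 they were Por (0.14), Tmbim1 (0.16) and Pttg1ip (0.16), with a median of 0.52. The likeness uses the comparisons above and is a description.

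The authors' deposited table, made with their own test, gives q = 4.67e-05 for Hnf4a in Aire KO, q = 2.96e-05 for Grhl1 in Fezf2 KO and q = 0.00111 for Hnf4g in Chd4 cKO. The other factors had q of 0.0924 to 0.987 in that table, with the exception of Hnf4g in Fezf2 KO given above.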

How the data were processed

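RNA-seq of sorted mTECs was analysed from the deposited count tables: raw counts of reads over the exons of each gene, made by the authors from single trimmed Ion Torrent reads, per the file headers. The builds GRCm38 and mm10 and the tool DESeq2 are named in the submitters' processing notes. The aligner and its settings were not found in the sources. The authors' deposited summary table gives log2 group levels, for which no step is stated, and q-values of their own tests. Per-sample columns of other read classes and units (216) were not used. In all, 25 symbols that had been turned into dates were restored, and starts were raised by 1 to count from 1.

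Each knockout was compared with its own control (n = 3 libraries per group) in edgeR 4.0.16 under R 4.3.3, with filterByExpr on low counts, TMM scaling factors and the quasi-likelihood test. P-values were adjusted by Benjamini-Hochberg over all tested genes, and calls were made under 0.05. CPM values use the scaled library sizes of each comparison, so that a group can have slightly different values in different comparisons. Alternatives were DESeq2 1.42.0, its size factors, no filter, voom with sample quality weights in limma 3.58.1, a spread shared over 18 libraries, and leaving out each library. The scripts were tested on simulated data. A group without reads was set at 3 reads over the group, and intervals on reads cover counting error only. Genes named from a list are taken from the up to 3 called genes per list and comparison with the largest changes and no overlap between groups. The 9 factors, the lists and the tests were chosen with earlier results of these data known.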

Additional observations from a re-analysis of the deposited data

Results flagged for a closer look

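In 5 cases the effect of a pair of knockouts on a factor differed in an interaction test of edgeR's quasi-likelihood fit. For Hnf4a the difference in log2 effect was 4.58 between Fezf2 KO and Aire KO and 5.20 between Chd4 cKO and Aire KO. The difference of 4.58 was not called with sample quality weights (3.16, adjusted p = 0.102). For Grhl1 it was 1.46 between Fezf2 KO and Aire KO and -1.47 between Chd4 cKO and Fezf2 KO. For Insm1 it was -0.72 between Fezf2 KO and Aire KO, where neither knockout changed the gene past the threshold by itself and where the difference was not called without library B of the WT for Fezf2. The contrasts with the Chd4 effect cannot be told apart from a difference of mouse strain or sequencing run or, for Hnf4a, of annotation.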

How the results depend on the processing

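With 3 libraries per group and 3571570 to 17220157 exon reads in each, depth limited most the factors of few reads, Ptf1a, Foxa2 and Hnf4a. No paired analysis was possible because the columns carry no replicate number. The alternatives that leave library B of the WT for Fezf2 out of the contrasts between effects and out of the gene lists were chosen after seeing the data. Of 350 results on the factors, 323 under alternatives chosen earlier and 27 under these, 309 kept their direction and their side of the threshold, 13 passed the threshold only under the alternative, 5 lost it and 23 changed sign. Of 853 results on the other named genes, 787 kept both, 61 lost the threshold and 5 gained it. Where a result moved, the cause was not tested.

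In Aire KO the genes called lower numbered 2257 without the filter on low counts (1401 in the main analysis, whose values stand in brackets from here on). Of the factors, 1 was higher without the filter (0), 2 were lower with the spread shared over 18 libraries (1), and leaving out a library gave 0 to 1 higher and 1 to 2 lower. In Fezf2 KO, where 389 genes were higher and 376 lower, the counts were 681 and 717 with DESeq2, 663 and 724 without the filter, 1193 and 1307 with voom and 1011 and 1158 with the shared spread, and each of these also called 1 factor lower (Hnf4g). Leaving out a library gave 102 to 1053 genes higher and 67 to 981 lower, with 0 to 1 factor in each direction. In Chd4 cKO the shared spread called 1179 genes higher and 1196 lower (2164 and 2175). Between the WT groups DESeq2 called 283 genes higher and 150 lower (15 and 5). For Chd4 minus Aire 1 factor was lower with DESeq2 size factors, with voom and without library B (0), and 1433 genes were lower with voom and 1328 without library B (826). For Fezf2 minus Aire 1 factor was higher and 2 were lower with voom, and 3 were higher and 1 lower without library B (2 and 1). For Chd4 minus Fezf2 voom called 2040 genes higher and 1864 lower (1298 and 1111).

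The changes of sign concerned log2 values of factors that were not called. In Aire KO Hnf4g was at 0.023 with voom and at -0.17 to 0.25 without 1 library, and Spib at -0.49 to 0.10. In Fezf2 KO Foxa1 was at 0.00 without the filter and at -0.088 to 0.11 without 1 library, Foxa2 at 0.29 with voom and -0.72 to 0.31, Spib at 0.041 with voom and -0.19 to 0.077, and Foxa3 at -0.63 to 0.077. In Chd4 cKO Foxa1 was at -0.17 to 0.11 and Hnf4a at -0.66 to 0.025. For Chd4 minus Aire Grhl1 was at 0.065 with voom. For Chd4 minus Fezf2 Foxa1 was at 0.018 with voom and 0.024 without library B, Foxa2 at -0.51 and -0.58, and Hnf4g at 0.28 and 0.17.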
